A study of Mus musculus with 2 samples.

Results

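Genes of protein ubiquitination in striated muscle were described from long-read RNA sequencing of mouse gastrocnemius, a fast calf muscle. They were chosen by name: the ligase genes Fbxo32, Trim63, Trim54, Trim55, Trim72, Asb2 and Fbxo40, and the polyubiquitin gene Ubb. All 8 had reads, among 15631 annotated genes with a read in either library. The tissue came from male mice of the F1 hybrid strain B6CASTF1/J aged 10 days, with no treatment and no control group, and the series held 1 group of 2 biological replicates with 2 micrograms of total RNA each. The labels number the males separately but give both the same donor entry, so the error between replicates is the spread between these libraries.

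Replicate 1 held 1145490 reads assigned to mouse transcripts and replicate 2 held 941841. Levels are counts of these reads per 1000000 (CPM), each read standing for 1 cDNA molecule, and are given per library or as mean ± SD over both. Where a gene had no read, 3 reads were taken as the upper limit, which is 2.62 CPM in replicate 1 and 3.19 CPM in replicate 2. Shares have 95% Wilson intervals, and these bounds describe counting error alone. The 8 skeletal muscle markers together took 263494 CPM in replicate 1 and 251075 CPM in replicate 2, all 8 with reads. Of 5 cardiac markers, Myl7, Nppa and Tnni3 were not listed. The sum over the 5 cardiac markers was 26.2 CPM in replicate 1 and 42.5 CPM in replicate 2, most of it from Myl4 (24 and 40 reads). Whether Myl4 marks cardiac cells in this tissue was not tested. Myh6 had 6 and 0 reads. The 4 smooth muscle markers summed to 741 and 646 CPM. Acta2 (366 and 394 CPM) and Smtn (343 and 236 CPM) gave most of this sum. Myh11 had 28 and 7 reads and Cnn1 had 9 and 8. The cardiac and smooth muscle sums thus rest on few genes. The 7 blood and immune markers summed to 255 and 514 CPM, most of it from the globin gene Hba-a1 (184 and 451 CPM). Of the other blood and immune markers, Csf1r had 38 and 19 reads, Lyz2 36 and 33, Cd68 5 and 6, and Ptprc, Cd3e and Itgam 0 or 1 in each library. In bulk tissue, fewer cells of a type and less RNA per cell cannot be told apart.

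Ubiquitin is joined to a protein by an activating enzyme (E1), a conjugating enzyme (E2) and a ligase (E3) that picks the substrate, and chains of ubiquitin send the protein to the proteasome. Some E3 ligases are single proteins with a RING domain, such as the TRIM family, and others are cullin complexes in which an F-box or SOCS-box protein holds the substrate. Fbxo32 (atrogin-1) and Trim63 (MuRF1) are the ligase genes best known from muscle atrophy, where FoxO transcription factors induce them, while Asb2, Fbxo40, Trim54 and Trim55 are known from muscle differentiation, growth signalling and the sarcomere.

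Ubb had by far the most reads of the 8 genes. Ubb had 2623 CPM in replicate 1 and 3435 CPM in replicate 2 (3029 ± 574 CPM, SD, n = 2), which placed it 28th of the 15631 genes by mean level. Asb2 followed with 377 and 375 CPM, and Trim54 with 210 and 186 CPM. Trim63 had 128 CPM in replicate 1 and 123 CPM in replicate 2, close to each other beside the distance to Trim54. Trim55 had 81.2 and 94.5 CPM and Fbxo40 had 76.8 and 63.7 CPM. Fbxo32, the atrophy ligase gene atrogin-1, was at 17.5 CPM in replicate 1, with 21.2 CPM in replicate 2 (20 reads in each). Trim72 was at 24.4 CPM in replicate 1, with 11.7 CPM in replicate 2 (28 and 11 reads).

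**Figure D1:**
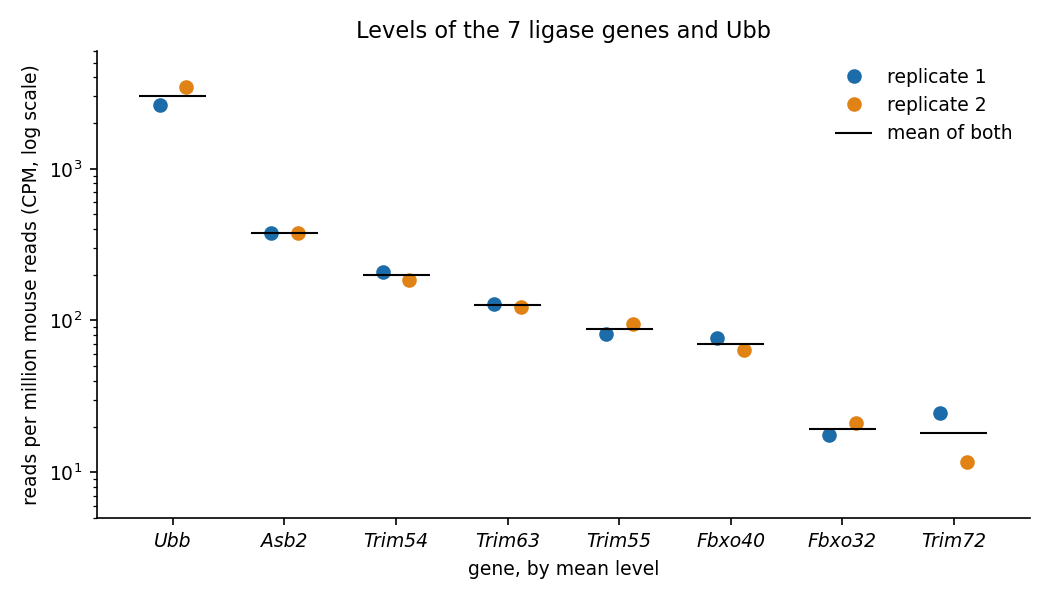
Reads per 1000000 mouse reads (CPM, log axis) of the 7 ligase genes and Ubb, ordered by mean level, with points for replicate 1 (left) and replicate 2 (right) and a line at their mean. Ubb stands at 3029 CPM, the ligase genes run down to 18.1 CPM for Trim72, and only the points of Fbxo32 and Trim72 overlap between neighbours.

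Among neighbours in this order, Fbxo32 and Trim72 overlapped between libraries, and the other 6 neighbouring pairs did not. This compares library values without counting error. Trim55 and Fbxo40 had 93 and 88 reads in replicate 1, and the intervals of their shares of the 7 ligase genes' reads overlapped in both libraries. Divided by the read-weighted transcript length, the order held except that Trim72 (11.8 and 5.61 CPM per kilobase in replicates 1 and 2) moved above Fbxo32 (3.11 and 3.78 CPM per kilobase). On that scale Asb2 (143 and 142 CPM per kilobase) and Trim54 (149 and 131 CPM per kilobase) overlapped as well. Over the 7 ligase genes the sum was 916 CPM in replicate 1, beside 875 CPM in replicate 2. Ubb had 2.86 times that sum in replicate 1 and 3.93 times in replicate 2, or 4.08 and 5.66 times per kilobase. As each read stands for 1 cDNA molecule, values per kilobase show how far results depend on length and are not a correction of the levels.

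Reads of each gene were compared between the libraries with an exact two-sided conditional binomial test over the 7516 genes with 20 or more reads in all, a test of these libraries and not of conditions. Calls needed a Benjamini-Hochberg adjusted p under 0.05 together with a ratio of 2 or more. Of all genes tested, 192 (2.55%) were called, and of the 8 genes described here 0 were called, with 2 at an unadjusted p under 0.05. The TMM scaling of edgeR and DESeq2's size factors also gave 0 called among the 8. The median log2 ratio of replicate 1 to replicate 2 was 0.03 over the 8 genes and 0.01 over all genes tested. Ubb had the lowest adjusted p of the 8, 5.45e-24 in the exact test, at a log2 ratio of -0.39 and thus under the 2-fold limit. With the null share fitted per bin of transcript length, the log2 ratio of Ubb was -0.20, with an adjusted p of 4.16e-06 in the exact test. Trim72 had a ratio of 2.09 between replicates 1 and 2 with a 95% interval of 1.01 to 4.66, and an adjusted p of 0.247 in the exact test. Trim72 had 39 reads over both libraries, so the direction rests on few counts. The other 6 genes differed by less than 1.5-fold between libraries.

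The TRIM ligases of the sarcomere are Trim63 (MuRF1), Trim55 (MuRF2) and Trim54 (MuRF3), related RING proteins that form heterodimers with each other and bind titin or microtubules. Replicate 1 had 420 CPM and replicate 2 had 403 CPM of them together. Trim54 took 50.1% of their reads in replicate 1 (45.7% to 54.6%) and 46.1% in replicate 2 (41.1% to 51.1%). Trim63 took 30.6% and 30.5%, and Trim55 took 19.3% and 23.4%. The intervals of the 3 genes did not overlap in replicate 1, and in replicate 2 that of Trim63 (26.1% to 35.3%) overlapped that of Trim55 (19.4% to 27.9%). Per kilobase the shares were 58.9% and 55.2% for Trim54, 27.5% and 28.0% for Trim63, and 13.7% and 16.9% for Trim55, so the order was the same on both scales.

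Trim63, on the plus strand of chromosome 4 (mm10, 134315120 to 134329629), was read mostly as 1 annotated transcript. Trim63-202, with 9 exons and a coding region of 355 codons, held 124 of 147 reads in replicate 1 (84.4%, 77.6% to 89.3%) and 102 of 116 in replicate 2 (87.9%, 80.8% to 92.7%). Trim63-201, a coding transcript of 352 codons, had 0 reads in either library. Most other reads used a splice site absent from GENCODE M21, 15 reads in replicate 1 and 11 in replicate 2. In 3 of 144 reads of replicate 1 and 2 of 114 reads of replicate 2, exon 8 started 5 nt later than annotated, a shift that is not a multiple of 3. The junction of exons 7 and 8 is shown with these 5 bases in capitals (exon 8 at chr4:134327705-134327782, plus strand).
Trim63 exon 7 to 8: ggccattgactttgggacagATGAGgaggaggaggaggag

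Trim54, on the plus strand of chromosome 5 (31116712 to 31137628), had the most uniform transcripts of the MuRF genes. Trim54-201, of 9 exons and 366 codons, held 222 of 241 reads in replicate 1 (92.1%, 88.0% to 94.9%) and 163 of 175 in replicate 2 (93.1%, 88.4% to 96.0%). Trim54-202 had 0 reads in either library. An unannotated form joined exon 3 to exon 5 and left out the coding exon 4 of 96 nt, a multiple of 3. It was seen in 7 of 235 reads of replicate 1 (2.98%, 1.45% to 6.02%) and 4 of 172 reads of replicate 2 (2.33%, 0.908% to 5.83%), close to each other in both libraries. Exon 4 (chr5:31134050-31134145, plus strand) is the stretch these reads lack.
Trim54 exon 4: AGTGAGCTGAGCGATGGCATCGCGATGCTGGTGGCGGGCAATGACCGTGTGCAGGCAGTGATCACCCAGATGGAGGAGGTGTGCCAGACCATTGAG

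Trim55, on the plus strand of chromosome 3 (19644474 to 19692421), had the lowest share of annotated intron chains of the 8 genes, 46.2% in replicate 1 and 53.9% in replicate 2. Trim55-201, of 10 exons and 545 codons, held 41 of 93 reads in replicate 1 (44.1%, 34.4% to 54.2%) and 44 of 89 in replicate 2 (49.4%, 39.3% to 59.6%). The next model was not annotated in GENCODE M21: it joined exon 8 to exon 10, with the other exons as in Trim55-201. It held 26 reads in replicate 1 (28.0%, 19.9% to 37.8%) and 19 in replicate 2 (21.3%, 14.1% to 31.0%). Exon 9 is 288 nt long, all of it coding and a multiple of 3. Over all models, exon 9 was present in 54 of 85 spanning reads in replicate 1 (63.5%, 52.9% to 73.0%) and 57 of 80 in replicate 2 (71.2%, 60.5% to 80.0%). The libraries' intervals overlapped. Exons 2 to 5, 7 and 8 were present in all of their spanning reads, 70 or more in each library. Exon 9 (chr3:19674254-19674541, plus strand) is printed in capitals with 6 nt of exons 8 and 10 at its ends, the letters that meet in the shorter form.
Trim55 exon 9: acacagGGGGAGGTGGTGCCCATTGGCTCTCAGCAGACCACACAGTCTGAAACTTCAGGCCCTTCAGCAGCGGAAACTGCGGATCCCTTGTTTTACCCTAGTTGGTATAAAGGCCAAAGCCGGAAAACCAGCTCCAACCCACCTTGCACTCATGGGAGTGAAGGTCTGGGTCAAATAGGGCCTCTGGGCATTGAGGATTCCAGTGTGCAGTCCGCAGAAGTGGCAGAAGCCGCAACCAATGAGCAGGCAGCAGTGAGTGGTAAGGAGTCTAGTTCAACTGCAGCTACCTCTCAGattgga

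**Figure D2:**
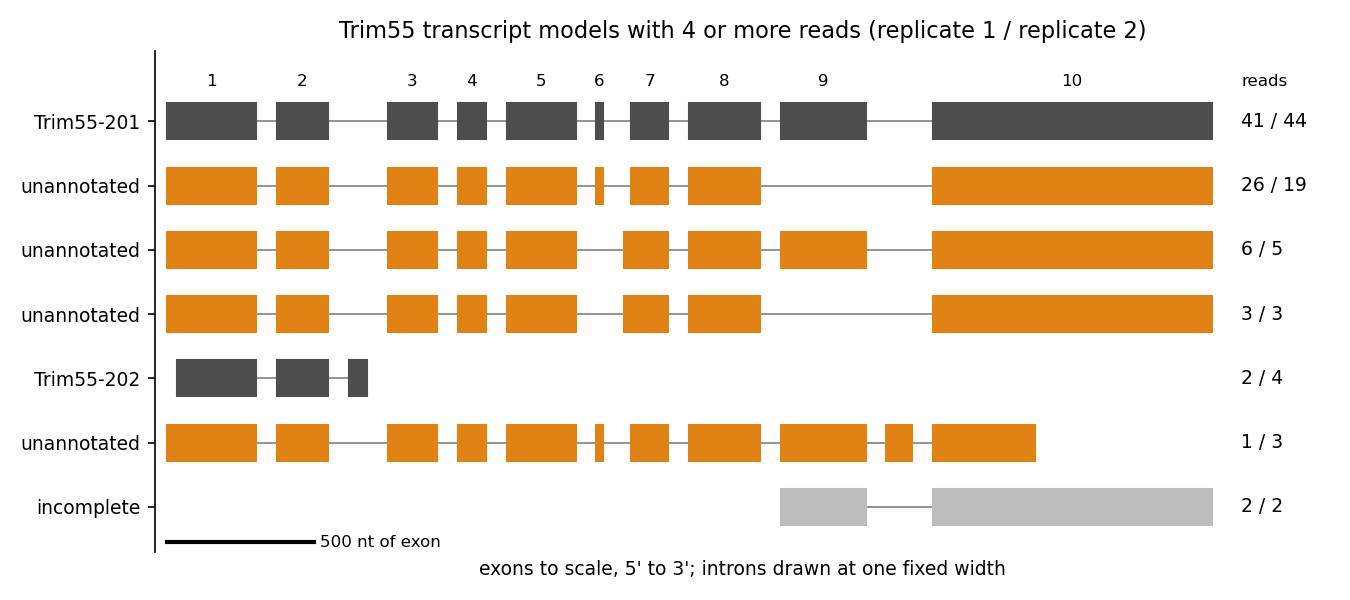
Trim55 transcript models with 4 or more reads over both libraries, exons to scale from 5' to 3' and introns at a fixed width, with reads in replicate 1 and replicate 2 at the right (dark, annotated transcripts; orange, unannotated; grey, incomplete). The model without exon 9 has 26 and 19 reads beside 41 and 44 of Trim55-201.

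Between exons 9 and 10, some Trim55 reads carried an exon that is absent from GENCODE M21 (chr3:19675760-19675847, 88 nt, not a multiple of 3). It was present in 4 of 89 spanning reads in replicate 1 (4.49%, 1.76% to 11.0%) and 5 of 82 in replicate 2 (6.10%, 2.63% to 13.5%). Short forms that ended within intron 2, among them the noncoding Trim55-202 of 3 exons and 506 nt, had 2 reads in replicate 1 and 7 in replicate 2.

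All 4 TRIM genes hold an internal coding exon of 23 nt: exon 6 in Trim63, Trim54 and Trim55, and exon 5 in Trim72. In GENCODE M21, 31 of 68 Trim genes with a coding transcript hold a run of exons of 96 nt, 231 or 234 nt and 23 nt in a row. The form with 234 nt was found in Trim54, Trim55, Trim63 and Trim69, and the form with 231 nt, which Trim72 has, in 27 genes. The 23-nt exons are shown in capitals with 20 nt of the neighbouring exons, because their placement differed between the reads of these genes (plus strand, chr4:134325045-134325067 in Trim63, chr5:31136753-31136775 in Trim54, chr3:19671407-19671429 in Trim55 and chr7:128008452-128008474 in Trim72).
Trim63 exon 6: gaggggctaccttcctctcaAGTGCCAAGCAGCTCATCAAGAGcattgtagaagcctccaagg
Trim54 exon 6: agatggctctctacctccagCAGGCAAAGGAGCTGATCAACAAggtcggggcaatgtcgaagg
Trim55 exon 6: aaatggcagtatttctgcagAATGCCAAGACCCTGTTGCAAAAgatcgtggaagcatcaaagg
Trim72 exon 5: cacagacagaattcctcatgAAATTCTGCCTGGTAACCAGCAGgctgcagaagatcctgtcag

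Letter by letter, the 23-nt exons of Trim63 and Trim54 were identical at 15 positions (65.2%), and each of the pairs of Trim63 with Trim55 and Trim54 with Trim55 at 13 (56.5%). That of Trim72 matched the MuRF exons at 5 to 10 positions (21.7% to 43.5%). The MuRF genes also share exon lengths of 173, 96, 234 and 125 nt around it. Their identity ran from 71.1% to 74.0% in the exon of 173 nt, 62.5% to 69.8% in that of 96 nt, 60.7% to 64.5% in that of 234 nt and 50.4% to 59.2% in that of 125 nt.

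The 23-nt exon was present in 136 of 144 spanning reads of Trim63 in replicate 1 (94.4%, 89.4% to 97.2%) and in 110 of 115 in replicate 2 (95.7%, 90.2% to 98.1%). Trim54 had it in 235 of 237 reads in replicate 1 and in all 174 reads of replicate 2. Trim55 had it in 76 of 86 reads in replicate 1 (88.4%, 79.9% to 93.6%) and 69 of 79 in replicate 2 (87.3%, 78.2% to 93.0%), the lowest inclusion of the MuRF genes in both libraries. Trim72 had it in 25 of 26 reads in replicate 1 and 10 of 11 in replicate 2.

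In every read without the 23-nt exon, a neighbouring exon was longer than annotated, and 0 reads joined the annotated ends of its neighbours. In Trim63 the exon before it was longer by 18 nt in all 13 such reads of both libraries. The exon after it was longer by 18 nt in 2 reads of Trim54, by 25 nt in 20 reads of Trim55 (10 in each library) and by 17 nt in 2 reads of Trim72. The transcript was thus 5 nt shorter in Trim63 and Trim54, 2 nt longer in Trim55 and 6 nt shorter in Trim72, a multiple of 3 only in Trim72. The reads themselves were not used, so whether they carry the letters of the 23-nt exon was not tested.

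**Figure D3:**
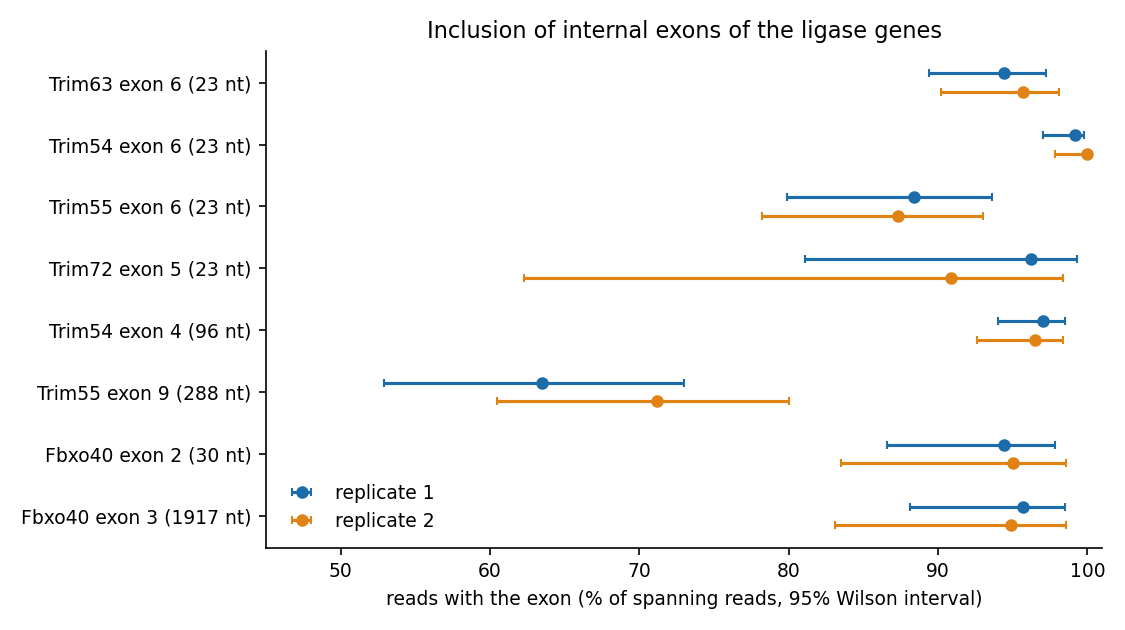
Share of spanning reads that contain each exon (x axis, from 45%), with 95% Wilson intervals, for replicate 1 (upper point) and replicate 2 (lower point) of each exon. Trim55 exon 9 lies lowest at 63.5% in replicate 1 and 71.2% in replicate 2, and the 23-nt exon of Trim72 has wide intervals. All reads counted as without a 23-nt exon had a longer neighbouring exon.

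Trim72 (MG53), on the plus strand of chromosome 7 (128003949 to 128011033), is a TRIM ligase known from repair of the muscle cell membrane. Its reads were assigned mostly to a pair of annotated transcripts that share a coding region of 477 codons and differ in their first exons. Every junction of Trim72-201 is also in Trim72-202, so reads of Trim72-202 that lack its first exon would have the same intron chain. Trim72-202 had 23 of 28 reads in replicate 1 and 7 of 11 in replicate 2, and Trim72-201 had 2 reads in each. With 11 reads in replicate 2, its shares were not tested.

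Fbxo32 and Fbxo40 encode F-box proteins, the substrate receptors of cullin 1 complexes: Fbxo32 binds Eif3f and MyoD, and Fbxo40 binds the insulin receptor substrate Irs1. Fbxo40 had 81.5% of their reads in replicate 1 (73.1% to 87.7%) and 75.0% in replicate 2 (64.5% to 83.2%), or 85.6% and 80.3% per kilobase.

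Fbxo32, on the minus strand of chromosome 15 (58175879 to 58214932), has 1 annotated transcript here, Fbxo32-201, of 9 exons, 6976 nt and 355 codons, of which the last exon is 5677 nt. It was read through all 9 exons in 15 of 20 reads in replicate 1 and 14 of 20 in replicate 2. Unspliced reads within the last exon made up 4 of 20 and 3 of 20. Every internal exon was present in all of the 15 to 17 reads that spanned it in each library, and 0 reads used an unannotated splice site, which allows up to 16.1% in each library. The level of Fbxo32 counted over its annotated transcript only was 13.1 CPM in replicate 1 and 14.9 CPM in replicate 2.

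Fbxo40, on the minus strand of chromosome 16 (36963460 to 36990467), encodes 710 codons in 4 exons, of which exon 3 holds 1917 coding nt. Fbxo40-201 held 59 of 88 reads in replicate 1 (67.0%, 56.7% to 76.0%) and 31 of 60 in replicate 2 (51.7%, 39.3% to 63.8%). Fbxo40-203, annotated as a retained intron of 2 exons, held 7 reads in replicate 1 (7.95%) and 10 in replicate 2 (16.7%), and unspliced reads within the last exon were 8 and 10. The only junction of Fbxo40-203, that of exons 3 and 4, is also in Fbxo40-201. Reads of Fbxo40-201 cut short in exon 3 would thus have the same intron chain, and whether the reads of Fbxo40-203 are such reads was not tested. Replicate 2 was lower for reads assigned to the coding transcript and higher for both of the others, and the intervals overlapped for each. Exon 2, of 30 nt, holds only the 3 bases of the start codon as coding sequence. It was absent, with exon 1 joined to exon 3, in 3 of 67 reads in replicate 1 and 2 of 38 in replicate 2. Exon 3 was absent, with exon 2 joined to exon 4, in 3 of 79 reads in replicate 1 and 2 of 50 in replicate 2. GENCODE M21 holds no junction of exons 1 and 3. It does hold that of exons 2 and 4, in the noncoding Fbxo40-204, which had 0 reads in either library. Each form was seen in both libraries.

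Asb2, on the minus strand of chromosome 12 (103321142 to 103356001), encodes the SOCS-box receptor of a cullin 5 ligase that targets filamins during muscle differentiation. Asb2-201, of 10 exons and 634 codons, held 360 of 432 reads in replicate 1 (83.3%, 79.5% to 86.6%) and 306 of 353 in replicate 2 (86.7%, 82.7% to 89.8%). Asb2-204, of 586 codons, starts within intron 2 of Asb2-201, in an exon 3 extended upstream, and had 8 reads in replicate 1 and 3 in replicate 2. With incomplete reads included, 9 reads in replicate 1 (2.08%) and 4 in replicate 2 (1.13%) were assigned a start in that exon. Every junction of Asb2-204 is also in Asb2-201, so reads of Asb2-201 cut short in exon 3 would have the same intron chain. Whether these reads began in the upstream extension was not tested. The coding regions share their last 1700 nt, and Asb2-201 has 202 coding nt of its own before them and Asb2-204 has 58. The unlike starts are shown with the start codon in capitals, for Asb2-201 the first 60 coding nt (in exon 2, chr12:103345656-103345932) and for Asb2-204 all 58 (in its first exon, chr12:103338077-103338373, both minus strand).
Asb2-201 start: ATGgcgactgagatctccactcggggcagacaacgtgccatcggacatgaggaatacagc
Asb2-204 start: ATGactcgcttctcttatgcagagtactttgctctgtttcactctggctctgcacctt

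The most frequent unannotated splice of Asb2 ended exon 9 earlier by 4 nt, in 12 of 430 reads of replicate 1 (2.79%, 1.60% to 4.81%) and 13 of 350 of replicate 2 (3.71%, 2.18% to 6.25%). The loss of 4 coding nt is not a multiple of 3. These bases are in capitals at the junction of exons 9 and 10 (exon 9 at chr12:103323763-103323916, minus strand).
Asb2 exon 9 to 10: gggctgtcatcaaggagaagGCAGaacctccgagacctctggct
Exon 8 ended 18 nt earlier in 2 reads of replicate 1 and 3 of replicate 2. The annotated internal exons of Asb2-201 were otherwise present in 99.7% to 100% of spanning reads in each library. Exons upstream of exon 2 other than exon 1 of Asb2-201 were seen in 6 reads of replicate 1 and 7 of replicate 2.

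Ubb, on the plus strand of chromosome 11 (62551171 to 62553213), encodes ubiquitin as head-to-tail repeats that are cut into single ubiquitins after translation. The reference transcript Ubb-201 has 915 coding nt, all in its second exon: 4 repeats of 228 nt (76 codons) and 3 further nt before the stop. The repeats differed in 2 to 10 bases and were 95.6% to 99.1% identical, and all 4 translated to the same ubiquitin. The first 60 nt of each repeat are shown, with capitals where a repeat differs from the first (from chr11:62552146-62552373 for repeat 1 to chr11:62552830-62553057 for repeat 4).
Ubb repeat 1: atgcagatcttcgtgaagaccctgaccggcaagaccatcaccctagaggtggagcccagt
Ubb repeat 2: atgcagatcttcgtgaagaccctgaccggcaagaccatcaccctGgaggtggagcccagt
Ubb repeat 3: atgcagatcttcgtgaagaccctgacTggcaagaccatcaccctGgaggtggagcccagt
Ubb repeat 4: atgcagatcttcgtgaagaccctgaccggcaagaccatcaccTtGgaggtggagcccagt

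How reads that could match near-identical sequence elsewhere in the genome were assigned is not given in the sources used here, so the level of Ubb is uncertain to that extent. Reads of Ubb were nearly all of 1 structure. Ubb-201 held 2976 of 3005 reads in replicate 1 (99.0%, 98.6% to 99.3%) and 3220 of 3235 in replicate 2 (99.5%, 99.2% to 99.7%), and unspliced reads were 25 and 12. In 2 reads of replicate 1 the intron ran 229 nt into the second exon, and in 1 read of each library 12 nt into it.

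**Figure D4:**
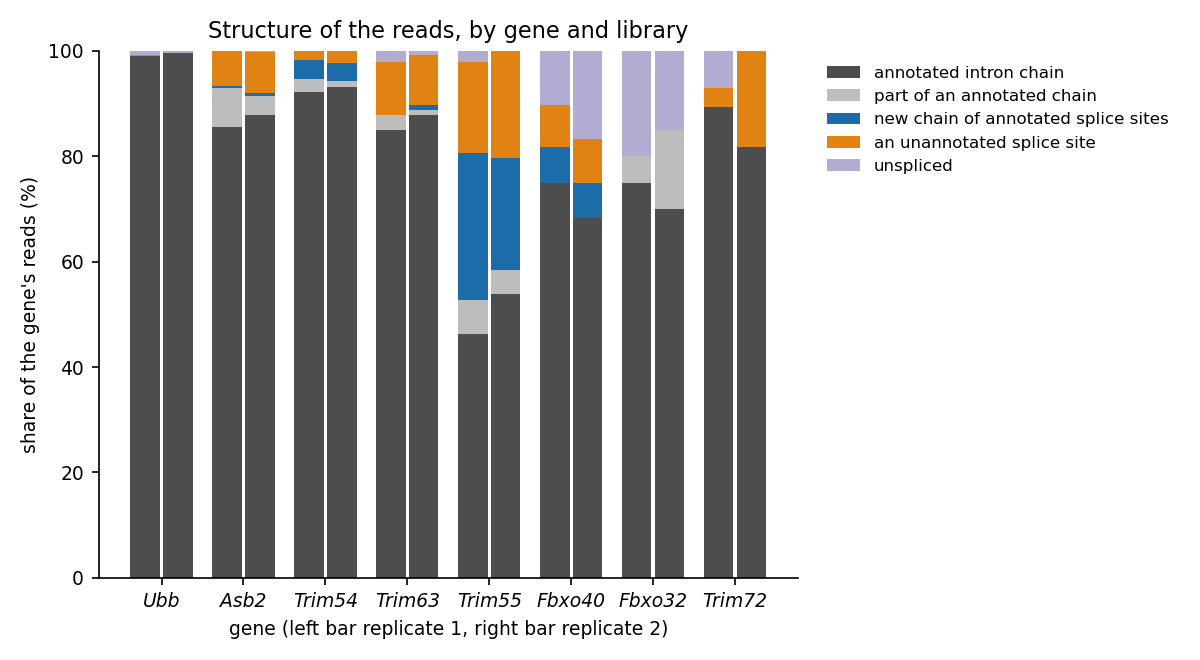
Share of each gene's reads (%) by structure against GENCODE M21, left bar replicate 1 and right bar replicate 2. Annotated intron chains make up 99.0% and 99.6% of Ubb reads and 46.2% and 53.9% of Trim55 reads, and Fbxo32 and Fbxo40 show unspliced reads.

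Across the 7 ligase genes, reads with an annotated intron chain were 82.6% in replicate 1 (80.1% to 84.7%) and 83.4% in replicate 2 (80.7% to 85.8%). Reads with an unannotated splice site were 6.86% in replicate 1 and 8.13% in replicate 2. These classes were recomputed from splice sites, since the deposited class of the same intron chain differed between libraries for 4 of the 25 unannotated chains found in both.

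The share of each transcript model among its gene's reads was compared between libraries by Fisher's exact test, two-sided, over models with 2 or more reads whose gene had at least 20 reads per library. Calls needed an adjusted p under 0.05 together with a difference of 10 points. Of 27030 models tested, 30 (0.111%) were called, and of 46 models of 7 genes described here 0 were called, with 2 at an unadjusted p under 0.05. The lowest adjusted p among the 46 was 1.00 in Fisher's exact test, also for Fbxo40-201, whose difference of 15.4 points was the largest.

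Inclusion of internal exons was compared in the same way where 20 or more reads of each library spanned the exon. Of 35113 exons tested, 1 (0.00285%) was called, and of the 37 exons of Asb2, Fbxo40, Trim54, Trim55 and Trim63 0 were called in Fisher's exact test, with 0 at an unadjusted p under 0.05. Exons in 5% to 95% of pooled spanning reads numbered 5 of 37 (13.5%), beside 1713 of 35113 (4.88%) over all genes. These were exons 6 and 9 and the 88-nt exon of Trim55, exon 6 of Trim63 at 95.0%, and exon 2 of Fbxo40 at 94.6%. A read counted as without an exon when an intron of the read held it, whatever the ends of the neighbouring exons. For exon 6 of Trim55 and of Trim63, every such read had a longer neighbouring exon. Whether these reads truly lack the 23-nt exon was not tested. Those of Trim63 and Fbxo40 and the 88-nt exon, at 5.26%, lay close to the limits. Exons of Fbxo32 and Trim72 had too few spanning reads for this comparison.

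The rest of the pathway was described from gene lists. Of 16 E1 and E2 enzyme genes all had reads, 15 were tested and 0 were called. Ube2v1, a cofactor of chain-building E2 enzymes, had 399 and 428 CPM, Ube2d3, an E2 enzyme that works with many RING ligases, had 378 and 414 CPM, and Ube2g2, an E2 enzyme of the endoplasmic reticulum pathway, had 200 and 221 CPM in replicates 1 and 2. Of 13 cullin-RING partner genes, 11 had reads and were tested and 0 were called. Cul3 had 141 CPM in replicate 1 and 182 CPM in replicate 2, the RING subunit Rbx1 141 and 152 CPM, and the elongin Elob 102 and 177 CPM. Cul1, the scaffold of the F-box complexes, had 117 and 124 CPM, and Cul5, the scaffold for Asb2, had 26.2 and 32.9 CPM. The median log2 ratio of replicate 1 to replicate 2 was -0.10 for the E1 and E2 genes and -0.33 for the cullin-RING partners, beside 0.01 over all genes tested. The medians and calls of all lists were taken without the null share fitted per bin of transcript length, so differences in length between lists were not accounted for.

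Of 20 other ubiquitin ligase genes known in muscle, 19 had reads, 17 were tested and 0 were called. Nedd4, a HECT ligase, had 451 CPM in replicate 1 and 286 CPM in replicate 2, the chaperone-linked ligase gene Stub1 181 and 212 CPM, and Rnf123 173 and 118 CPM. Among 9 deubiquitinase and shuttle genes, 8 were tested and 0 were called. The segregase gene Vcp had 614 and 597 CPM, Zfand5, a zinc-finger protein of the proteasome, 275 and 279 CPM, and the autophagy receptor gene Sqstm1 168 and 108 CPM. The median log2 ratios were -0.06 for the other ligases and 0.01 for the deubiquitinases and shuttles.

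Of 12 genes of FoxO and upstream signalling, 8 were tested and 1 was called. The called gene was Nr3c1, the glucocorticoid receptor, with 55.0 CPM in replicate 1 and 26.5 CPM in replicate 2 (ratio 2.07, 1.28 to 3.44, adjusted p = 0.0276 in the exact test). The kinase genes Akt1 (378 and 311 CPM) and Akt2 (150 and 116 CPM) and the myostatin gene Mstn (70.7 and 81.8 CPM) had the most reads of this list. The FoxO genes had few reads: Foxo1 had 13.1 CPM in replicate 1 and 11.7 CPM in replicate 2, Foxo3 had 6.98 and 6.37 CPM, and Foxo4 had 3 reads in each library. The list's median log2 ratio was 0.22.

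Of 15 reported substrates and binding partners, 14 were tested and 2 were called, both with the higher CPM in replicate 1. The fast myosin heavy chain gene Myh4 had 23388 CPM in replicate 1 and 8871 CPM in replicate 2, a ratio of 2.64. Titin, Ttn, the binding partner of the MuRF proteins, had 277 CPM in replicate 1 and 127 CPM in replicate 2 (ratio 2.17, adjusted p = 5.59e-12 in the exact test). The read-weighted length of the Ttn models was 3560 nt, and whether these counts measure full-length titin transcripts was not tested. The muscle creatine kinase gene Ckm, a reported target of MuRF1, had 49770 and 60459 CPM and was not called. Mybpc2, which encodes the fast myosin-binding protein C, had 5955 and 3743 CPM, a ratio of 1.59 and thus under the 2-fold limit. Partners of single ligases were measured beside them: Irs1, the partner of Fbxo40, had 44.5 and 52.0 CPM, Eif3f, the partner of Fbxo32, 183 and 182 CPM, and Flna, the filamin target of Asb2, 70.7 and 37.2 CPM. The list's median log2 ratio was 0.26. Among the marker lists, Myh11 of smooth muscle (24.4 CPM in replicate 1, 7.43 CPM in replicate 2) and the globin gene Hba-a1 were also called, and their part in the values of the 8 genes was not tested.

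**Figure D5:**
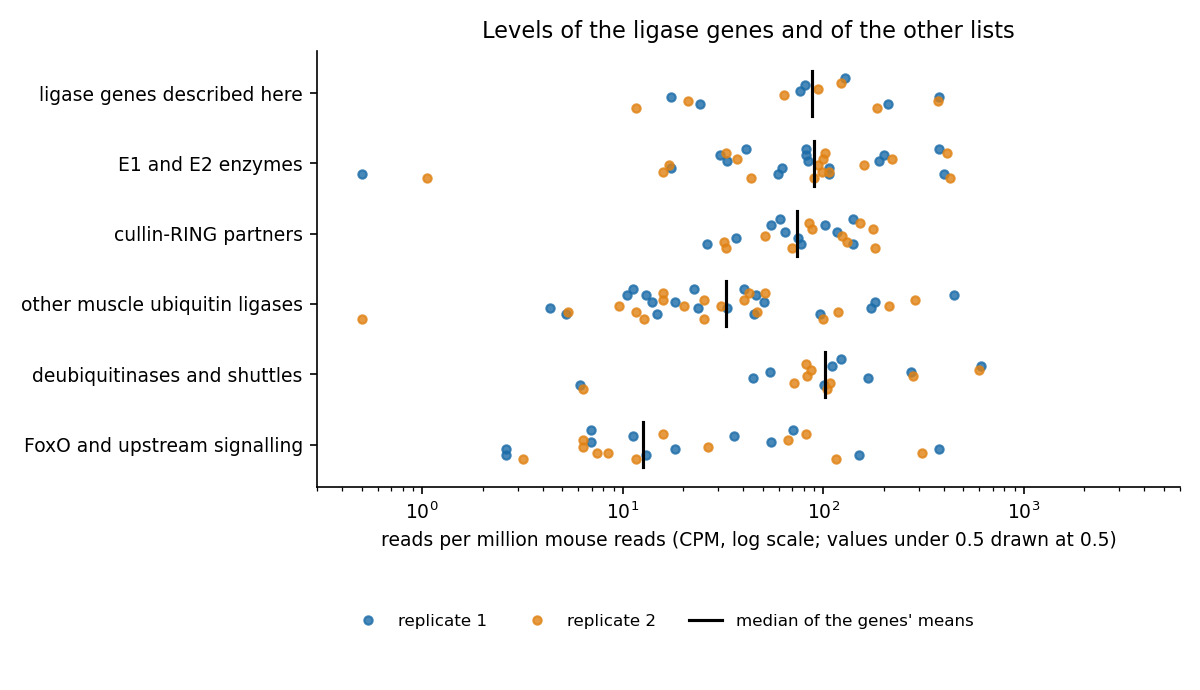
Reads per 1000000 mouse reads (CPM, log axis, not divided by transcript length) of each gene in replicate 1 and replicate 2, by list, with a line at the median of the genes' means. The 7 ligase genes have their median at 87.8 CPM, the cullin-RING partners at 73.9 CPM and the FoxO and upstream genes at 12.6 CPM.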

How the data were processed

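Long reads of total RNA were measured in 2 libraries of 1 group. Per the deposited files, the authors aligned reads to mm10 and counted raw reads per transcript model against GENCODE M21, with models lacking a read left out; the annotation carries TALON attributes, and the aligner is not given in the sources used here. Per the labels, the pipeline document is version 3.1 for replicate 1 and 3.0 for replicate 2, and document version cannot be told apart from animal. The unit of the deposited values is counts.

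Counts were summed per gene over all models, with ERCC spike-ins left out of the total. Exons came from each library's deposited annotation and were matched by intron chain. Members and gene lists were chosen with earlier results of these data known. The naming rule took all 8 genes, models with a mean share of 5% or more, unannotated spliced models found in both libraries with 5 or more reads, exons in 5% to 95% of reads, and of each pathway gene list the 3 genes of highest level and any called gene. The list of ubiquitin genes is not reported here. Cul1, Cul5, the FoxO genes, Irs1, Eif3f, Flna, the marker genes and other rarer forms were named after their values were seen. Exon forms under 3 reads were not tested. Sequences are of GENCODE M21 transcripts (mm10). The p-values compare libraries and may measure technical spread. Python 3.11.15, numpy 2.4.6, scipy 1.17.1, pandas 2.3.3, matplotlib 3.10.9, edgeR 4.0.16 and DESeq2 1.42.0 (library scaling) were used.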

Additional observations from a re-analysis of the deposited data

Results flagged for a closer look

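A single-exon transcript assigned to the strand opposite Trim55 lay within its intron 9 (chr3:19687081-19689492, 2412 nt, minus strand) and is absent from GENCODE M21. It had 3 reads in replicate 1 and 7 reads in replicate 2. It was singled out because it lies outside the counts of the 8 genes and passed the limit of 3 reads in replicate 2. Over all opposite-strand models, Trim55 had 7 reads in replicate 1 and 9 in replicate 2. Trim72 had 3 in each, Asb2 had 1 in each, and Fbxo32 had 1 and 0, with 0 for Trim63, Trim54, Fbxo40 and Ubb. Those of Trim72 were deposited as intergenic and met the gene only at its last base (chr7:128011033). For Trim55, 1 read in replicate 1 had the bounds of exon 2 (chr3:19645274-19645446). Other Trim55 models were bounded by the first base of an exon (chr3:19649975 and chr3:19675760). Whether the reads of these models came from the opposite strand was not tested.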

How the results depend on the processing

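The counts of called genes, models and exons were 0 under each alternative run except 1: with any fold allowed, 1 of the 8 genes was called, Ubb. Apart from leaving out a library, which with 2 libraries cannot move a mean by 1 SD, levels moved by more than 1 SD in 6 of 24 alternatives. Of these, 5 were with annotated transcripts only, where Trim55 had 44.3 CPM and not 87.8 CPM. With annotated transcripts only or without genomic reads, the total stayed that of all mouse reads, so levels could not rise. Annotated transcripts held 70.9% of all mouse reads in replicate 1 and 74.9% in replicate 2. Exons in the variable range numbered 8 with limits of 2% and 98%, 2 with limits of 10% and 90%, and 4 or 5 with a single library or without incomplete and genomic reads. Over all genes, called genes numbered 59 with a read minimum of 100 and 654 with any fold, beside 192. They numbered 151 with the null share fitted per bin of transcript length, and from 141 (no read minimum) to 210 (without genomic reads) under the other settings. Called models numbered 101 with any difference, beside 30, and called exons 5 with any difference, 3 without incomplete and genomic reads and 2 with 50 spanning reads, beside 1. No paired analysis was possible because both libraries belong to 1 group. Depth limits Fbxo32 and Trim72, at 40 and 39 reads, most.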
